A study of Mus musculus with 12 samples.

Results

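The enzymes of the tricarboxylic acid (TCA) cycle, the anaplerotic enzymes that feed it and the carriers that move its intermediates across the mitochondrial membrane were examined as 1 group of genes. The group was chosen by gene name and held 31 of the 24674 genes listed for mouse prostate organoids. All 31 names were found, and 29 reached a mean of 1 TPM (transcripts per 1000000) in at least 1 group of samples. The exceptions were Me3, a mitochondrial malic enzyme, and Pck1, the cytosolic phosphoenolpyruvate (PEP) carboxykinase.

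Organoids, 3-dimensional cultures in gel, were derived from basal cells of the prostate of wild-type C57BL/6 mice; the study's methods give male C57BL/6J mice aged 3 to 6 months. The 4 groups received vehicle, UK5099, butyrate, or UK5099 together with butyrate (the combination), and each held 3 replicates, 12 samples in all. UK5099 blocks pyruvate import into mitochondria, and butyrate is an inhibitor of histone deacetylases; the labels give no dose or duration. Nothing in the labels says whether replicates of a group were separate cultures or animals, so p-values measure the spread between these samples, which may be technical.

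The TCA cycle oxidises acetyl-CoA to carbon dioxide in the mitochondrial matrix and passes electrons to the respiratory chain. Intermediates withdrawn for synthesis are replaced by anaplerosis, in which pyruvate carboxylase makes oxaloacetate from pyruvate, and carriers of the SLC25 family exchange citrate, malate, dicarboxylates and aspartate with the cytosol. The prostate is known for secreting citrate, and its luminal cells for limiting citrate oxidation.

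Sequencing depth, recovered from the steps of the deposited values, was between 33251844 and 43498964 fragments per sample. Replicate 1 of UK5099 and replicate 1 of the combination stood apart: in the 4 replicate pairs that held either, a chi-square of fragments per degree of freedom was 6.30 to 6.65, against 1.93 to 2.65 in the other 8 pairs. In bulk samples, fewer cells of a type and less RNA per cell cannot be told apart. Lineage markers, given in TPM in the order vehicle, UK5099, butyrate and combination, moved with the treatments. All 3 basal markers were higher with UK5099, and their sum was 3507 to 3547, 9746 to 10240, 4486 to 4676 and 8067 to 8320. Under butyrate they parted: Krt5 was 1838 to 1855 with vehicle and 3102 to 3235 with butyrate, while Krt14 was 1651 to 1691 and 1365 to 1432. The summed luminal keratins Krt8 and Krt18 were 2334 to 2417, 1096 to 1127, 881 to 899 and 472 to 486, and the epithelial gene Epcam was 531 to 546, 296 to 311, 170 to 172 and 91.2 to 98.0. The 6 stromal markers summed to 2.29 to 2.42, 2.59 to 2.88, 10.63 to 10.97 and 2.27 to 2.66, of which Dcn made up 9.37 to 9.62 with butyrate. Cd68, a macrophage-associated gene, was 23.8 to 24.8, 29.7 to 30.9, 66.2 to 68.6 and 86.4 to 97.1, while Ptprc, which defines leukocytes, did not exceed 0.0042. Their part in the results below was not tested.

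For UK5099 the sum of the group was lower on both measures used, on which the median of all genes was lower as well. For butyrate the direction of the sum depended on the measure. Summed over the 31 genes, TPM was 979 ± 4.8 with vehicle, 878 ± 8.5 with UK5099, 805 ± 2.0 with butyrate and 746 ± 4.8 under the combination (SD, n = 3). Counted instead as fragments per 1000000, the sums were 2758 ± 19, 2633 ± 31, 2908 ± 14 and 2744 ± 7.6 in the same order, so butyrate lay below vehicle on the first measure and above it on the second. Pseudogenes held 42.1 to 42.5% of TPM with vehicle and 45.9 to 46.3% with butyrate, and their part in this was not tested. The deposited scale put the median difference of the 13345 genes averaging 1 TPM or more at -0.12 with UK5099, -0.30 with butyrate and -0.41 under the combination, in log2(TPM + 1). The medians of the 28 genes of the TCA and carrier group at that level were -0.17, -0.30 and -0.40. Fitted on recovered fragments, the median with UK5099 was -0.07 over the 13345 genes and -0.09 over the 28. After rescaling samples by the median of ratios, the medians of the 28 were -0.02, 0.03 and 0.06. A gene is therefore written below as having risen or fallen only if its limma adjusted p was under 0.01 with the same sign both as deposited and after that rescaling. Values per sample, and the order of groups read from them, are in TPM as deposited, and differences after rescaling are given beside those as deposited.

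Levels of different genes were compared as fragments per exonic kilobase per 1000000 fragments, since the deposited TPM were divided by the whole genomic span. The exonic length merged the exons of all annotated transcripts of a gene, so it can exceed that of the transcripts expressed. It was 2771 bases for Idh1, 5779 for Cs and 7342 for Slc25a12, and the order of genes depends on it. In vehicle organoids Idh1, the cytosolic isocitrate dehydrogenase, was the highest of the 31 on this measure, at 79.9 ± 1.8. It was followed by Sdhd, a membrane anchor of succinate dehydrogenase, at 66.8 ± 0.93, by mitochondrial malate dehydrogenase Mdh2 at 62.2 ± 1.2, and by citrate synthase Cs at 56.4 ± 0.68. The citrate carrier Slc25a1, at 47.7 ± 1.1, and cytosolic malate dehydrogenase Mdh1, at 46.6 ± 0.61, lay within each other's spread, as did Sdha at 39.7 ± 0.25 and Idh2 at 39.7 ± 0.50. The lowest of the 29 detected genes were Pcx at 3.13 ± 0.035, Me2 at 2.48 ± 0.097 and Slc25a12 at 1.88 ± 0.047. Me3 was near 0 in every sample, with no more than 0.0027 TPM. Pck1 was listed at 0 in 11 samples and at 0.217 TPM in UK5099 replicate 1.

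**Figure D1:**
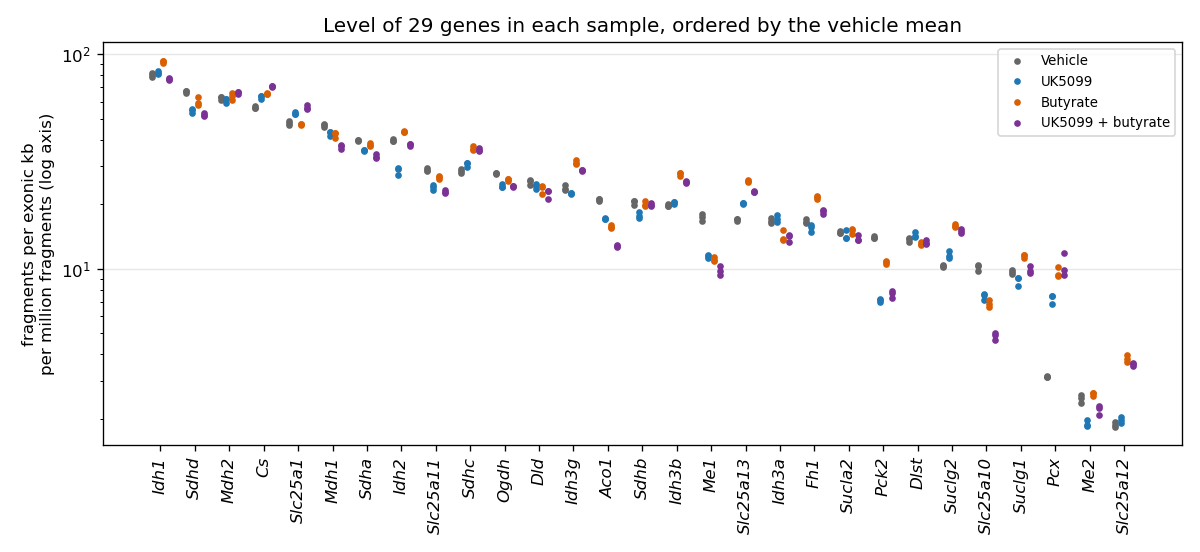
Fragments per exonic kilobase per 1000000 fragments (log axis) of 29 genes, ordered by the vehicle mean from left to right, with 1 point for each of the 12 samples, coloured by group. Idh1 is highest in vehicle at 79.9 and Slc25a12 lowest at 1.88, and Pcx, near the right end, shows 3 vehicle points below all 9 treated ones; Me3 and Pck1 are left out.

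The first question was how each drug, alone or combined, moved these genes against vehicle. The 3 comparisons share the vehicle samples. With UK5099, 2 of the 31 genes rose and 11 fell, where 8.16% and 13.6% of all 24674 genes did. With butyrate, 5 rose and 6 fell, against 9.69% and 18.2% of all genes. With the combination, 3 rose and 9 fell, against 10.1% and 20.6%. Most of the 31 were expressed, and among the 13345 genes averaging 1 TPM or more the shares were larger. They were 12.3% and 19.9% with UK5099, 11.6% and 28.6% with butyrate, and 11.2% and 31.5% with the combination. The study's own limits, an adjusted p under 0.01 and a difference over 1 in log2 as deposited, were applied here to log2(TPM + 1). The methods give log2 of TPM and name no added value, so the counts can differ from the study's. So applied, the limits were passed by 1 gene with UK5099 (Pck2), by 0 with butyrate and by 2 under the combination (Pck2 and Slc25a10). The added 1 shrinks differences of low genes: Pcx did not pass, at 1.21, 1.61 and 1.72 when fitted on recovered fragments. Those limits were passed by 1.84%, 3.54% and 6.42% of all genes in these comparisons. Without the 2 samples that stood apart, a fit added after seeing the data, 3 rose and 10 fell with UK5099, 5 and 5 with butyrate, and 3 and 9 under the combination. Aco1, Sdhd, Me1, Pck2 and Slc25a10 fell in all 3 comparisons, and Pcx rose in all 3. Another 13 genes passed in none: Cs, Idh1, Idh3g, Dlst, Dld, Suclg1, Sucla2, Sdhc, Fh1, Mdh2, Me3, Pck1 and Slc25a1.

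**Figure D2:**
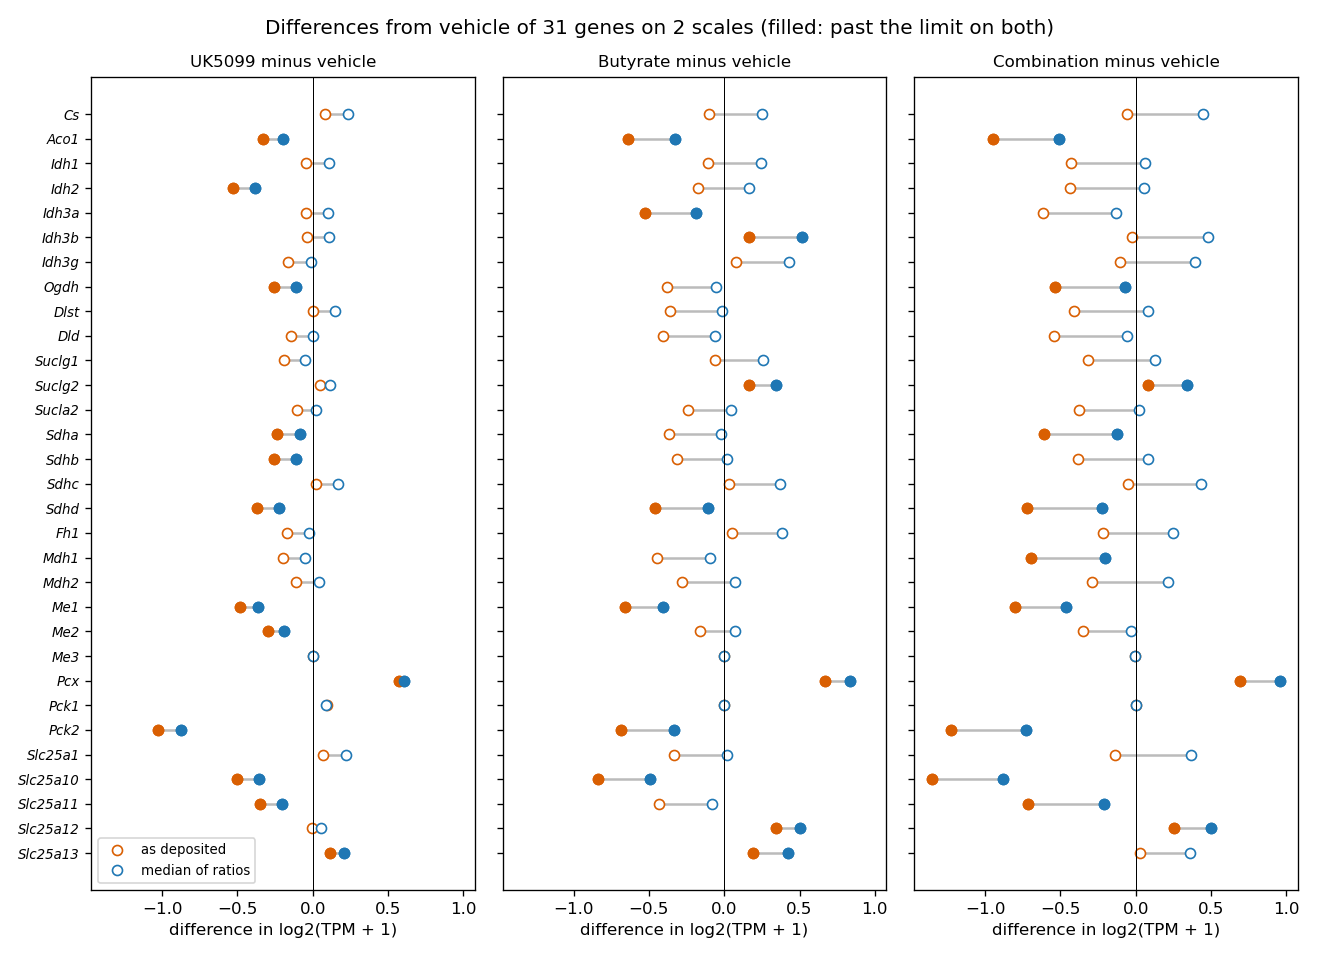
Difference from vehicle in log2(TPM + 1) (x axis) for each of the 31 genes (rows) in the 3 comparisons (panels), as deposited (orange) and after median of ratios scaling (blue); filled points passed the limit with 1 sign on both scales. Blue points lie mostly to the right of orange ones, farthest under the combination, so many genes change side of 0 between scales, while Pck2, Slc25a10, Me1 and Aco1 stay left of 0 and Pcx right of it in all 3 panels.

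Among the anaplerotic and cataplerotic enzymes, Pck2 fell most with UK5099 and Pcx rose. Pck2, the mitochondrial PEP carboxykinase, converts oxaloacetate to PEP; it is listed on chromosome 14 from 55777723 to 55788699 on the plus strand, in a table that names no genome build. Its TPM was 51.1, 51.0 and 51.4 in the vehicle samples and 24.6, 24.6 and 24.6 with UK5099. With butyrate it was 30.9, 31.5 and 32.1, and under the combination 20.4, 21.4 and 22.2. No treated sample reached the vehicle range, the butyrate samples lay above the UK5099 samples, and the combination samples were lowest as deposited, though as fragments per exonic kilobase the UK5099 samples were lowest, at 6.97 to 7.19 against 7.28 to 7.85. The difference from vehicle was -1.03 ± 0.025 (SE) with UK5099 (limma adjusted p = 4.72e-09), -0.68 ± 0.025 with butyrate (adjusted p = 1.67e-08) and -1.22 ± 0.025 under the combination (adjusted p = 2.86e-10). After median of ratios scaling these were -0.88, -0.33 and -0.73.

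Pcx, pyruvate carboxylase, moved the other way. It was 0.691, 0.689 and 0.691 TPM with vehicle, 1.53, 1.43 and 1.58 with UK5099, 1.81, 1.64 and 1.64 with butyrate, and 2.00, 1.56 and 1.67 under the combination. All 9 treated samples lay above the 3 vehicle samples, the butyrate samples lay above the UK5099 samples, and the combination overlapped both in TPM. Differences were 0.57 ± 0.054 (SE, limma adjusted p = 2.07e-05), 0.67 ± 0.054 (adjusted p = 2.89e-06) and 0.70 ± 0.054 (adjusted p = 1.66e-06), and 0.61, 0.84 and 0.96 after rescaling. The pseudocount of 1 understates changes of so low a value: fitted on recovered fragments with voom, the log2 differences were 1.21, 1.61 and 1.72. The span of Pcx contains Lrfn4 on the opposite strand, an overlap of 3883 bp. Lrfn4, at 57.8 TPM with vehicle, differed by -0.48, -1.25 and -1.40, or by -0.33, -0.90 and -0.90 after rescaling. Whether counting separated the strands is not given in the sources used here.

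The malic enzymes, which turn malate into pyruvate, were lower where they changed. Me1, the cytosolic NADP-dependent form, was 2.91, 3.04 and 3.08 TPM with vehicle, 1.85, 1.83 and 1.93 with UK5099, 1.53, 1.56 and 1.52 with butyrate and 1.37, 1.24 and 1.30 under the combination. The 4 groups did not overlap in TPM. As fragments per exonic kilobase, UK5099 at 11.2 to 11.6 overlapped butyrate at 10.8 to 11.3. Me1 fell by 0.48, 0.66 and 0.80 on the log2(TPM + 1) scale (limma adjusted p = 4.19e-07, 1.81e-08 and 2.86e-09), or by 0.36, 0.41 and 0.46 after rescaling. On recovered fragments its differences were -0.61, -0.66 and -0.82. Me2, a mitochondrial form, fell by 0.30 with UK5099 (adjusted p = 1.43e-05), from 1.97 to 2.12 TPM down to 1.43 to 1.51. This was -0.19 after rescaling and -0.39 on recovered fragments. With butyrate Me2 was 1.69 to 1.74 TPM and did not pass on both scales.

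**Figure D3:**
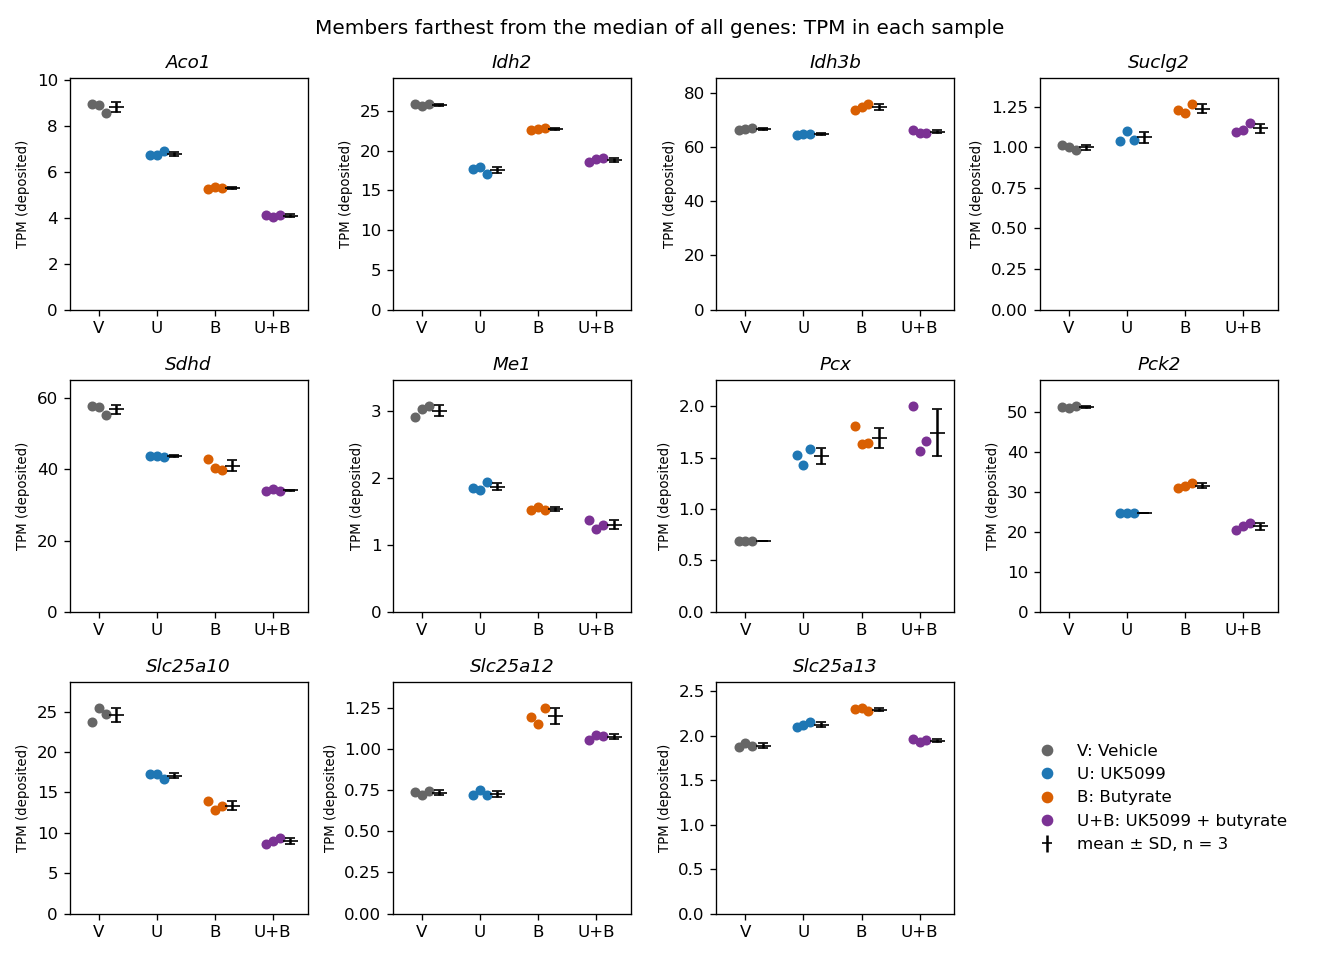
TPM as deposited (y axes start at 0) in each sample for the 11 genes that lay farthest from the median difference of all genes in a comparison with vehicle; points are samples by group and the bar beside them is the mean ± SD, n = 3. Pck2 drops from 51.0 to 51.4 with vehicle to 24.6 with UK5099, Slc25a10 and Aco1 step down from left to right, and Slc25a12 is above vehicle in the butyrate and combination columns.

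Of the 5 carriers, Slc25a10 showed the largest fall. It is the dicarboxylate carrier, which exchanges malate and succinate for phosphate, and is listed on chromosome 11 from 120382666 to 120390013 on the plus strand. Its TPM was 23.7, 25.5 and 24.7 with vehicle, 17.3, 17.2 and 16.7 with UK5099, 13.9, 12.8 and 13.4 with butyrate, and 8.67, 9.01 and 9.40 under the combination. The groups stepped down in that order with no overlap in TPM. As fragments per exonic kilobase, UK5099 at 7.161 to 7.635 and butyrate at 6.605 to 7.156 nearly met. Butyrate differed from UK5099 by -0.33 as deposited and -0.14 after rescaling, and did not pass on both scales. The differences from vehicle were -0.50 ± 0.038 (SE), -0.84 ± 0.038 and -1.35 ± 0.038 (limma adjusted p = 4.53e-06, 5.64e-08 and 1.46e-09), and -0.36, -0.50 and -0.88 after rescaling. Slc25a11, the oxoglutarate carrier of the malate-aspartate shuttle, fell by 0.35 with UK5099, from 96.1 to 97.4 TPM down to 74.8 to 76.0, and by 0.72 under the combination, to 57.8 to 59.3 TPM; after rescaling these were -0.20 and -0.21. Its end overlaps Rnf167 on the opposite strand by 245 bp; Rnf167, at 45.0 TPM with vehicle, did not pass in those comparisons.

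Both aspartate-glutamate carriers of that shuttle, Slc25a12 and Slc25a13, were higher with butyrate. Slc25a12 was 0.740, 0.722 and 0.746 TPM with vehicle and 0.719, 0.749 and 0.720 with UK5099, which overlapped, but 1.19, 1.15 and 1.25 with butyrate and 1.06, 1.08 and 1.08 under the combination. It rose by 0.34 ± 0.016 (SE) with butyrate and 0.26 ± 0.016 under the combination (limma adjusted p = 8.77e-08 and 4.05e-07), by 0.50 and 0.50 after rescaling, or by 1.02 and 0.93 on recovered fragments. Slc25a13 was 1.87, 1.91 and 1.88 TPM with vehicle, 2.10, 2.12 and 2.15 with UK5099, 2.29, 2.31 and 2.27 with butyrate, and 1.96, 1.92 and 1.95 under the combination. The single-drug samples lay above the others as deposited, but as fragments per exonic kilobase the combination, at 22.7 to 23.1, lay above UK5099 at 20.04 to 20.25 and vehicle at 16.7 to 17.1. Slc25a13 rose by 0.11 with UK5099 and 0.19 with butyrate (adjusted p = 3.01e-05 and 3.56e-07), or by 0.21 and 0.42 after rescaling. The combination differed by 0.03 as deposited and 0.36 after rescaling. On recovered fragments the differences were 0.25 with UK5099, 0.60 with butyrate and 0.43 under the combination. Slc25a1, the citrate carrier, differed from vehicle by 0.07, -0.33 and -0.14, or 0.22, 0.02 and 0.37 after rescaling, and passed in none of the 3 comparisons on both scales.

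The promoters of the 2 genes past the study's limits, Pck2 and Slc25a10, are shown to place these transcripts beside their regulatory sequence. Windows of 300 bases, from 250 before the RefSeq start of transcription to 50 after it, were read from RefSeq on GRCm38.p6, a build that differs from the coordinates of the deposited table. Both strands were searched for the core of the antioxidant response element, TGACNNNGC, and for a C/EBP-ATF response element, TGATGNAAN. The capitals mark the match in Pck2, on the minus strand, at position -104 from the start; the Slc25a10 window held neither set of letters.
Pck2, chr14:55540016-55540315, plus strand: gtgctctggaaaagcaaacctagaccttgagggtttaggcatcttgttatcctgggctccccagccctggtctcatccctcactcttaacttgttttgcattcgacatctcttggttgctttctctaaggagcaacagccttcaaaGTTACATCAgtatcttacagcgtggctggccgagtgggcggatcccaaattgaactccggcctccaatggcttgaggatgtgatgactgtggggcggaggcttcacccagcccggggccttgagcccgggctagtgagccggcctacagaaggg
Slc25a10, chr11:120491587-120491886, plus strand: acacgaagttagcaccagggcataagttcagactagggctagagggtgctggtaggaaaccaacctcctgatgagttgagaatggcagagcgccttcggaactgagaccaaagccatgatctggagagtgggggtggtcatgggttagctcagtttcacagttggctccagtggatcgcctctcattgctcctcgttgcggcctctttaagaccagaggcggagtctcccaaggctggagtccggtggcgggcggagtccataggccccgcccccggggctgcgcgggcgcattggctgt
Of the 31 genes, 28 had a promoter window, 36 windows in all. The first set of letters was found in 5 of the 36 windows (Dlst, Idh3g, Mdh1, Me1 and Sucla2), against 12.4% of 32851 windows of all genes. The second was found in 2 of the 36 windows, those of Pck2 and Me3, against 3.95% of all windows. A match is a description of the letters and not a site.

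At the entry to the cycle, Cs differed from vehicle by 0.08 with UK5099, -0.10 with butyrate and -0.06 under the combination, or by 0.23, 0.25 and 0.44 after rescaling, and did not pass on both scales. Aco1, cytosolic aconitase, which is also an iron-regulatory protein, was 8.96, 8.93 and 8.58 TPM with vehicle, 6.74, 6.75 and 6.90 with UK5099, 5.25, 5.34 and 5.31 with butyrate, and 4.13, 4.02 and 4.14 under the combination. The 4 groups were separate. It fell by 0.33, 0.64 and 0.95 (limma adjusted p = 5.77e-07, 3.31e-09 and 1.79e-10), or by 0.19, 0.33 and 0.51 after rescaling.

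The isocitrate dehydrogenases did not move together. Idh2, the mitochondrial NADP-dependent form, was 25.9, 25.6 and 25.8 TPM with vehicle, 17.6, 17.9 and 17.1 with UK5099, 22.6, 22.7 and 22.8 with butyrate, and 18.5, 18.9 and 19.0 under the combination. UK5099 samples were lowest. Idh2 fell by 0.53 ± 0.017 (SE) with UK5099 (limma adjusted p = 2.08e-08), or by 0.38 after rescaling. With butyrate its difference was -0.18 as deposited and 0.17 after rescaling, both past the limit, so no direction is given; Cs and Idh1 showed the same reversal with butyrate. Idh1 was 39.5 to 42.0 TPM with vehicle, 39.1 to 40.3 with UK5099, 37.5 to 38.4 with butyrate and 29.9 to 30.5 under the combination.

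The NAD-dependent enzyme Idh3 has a catalytic subunit, Idh3a, and partner subunits Idh3b and Idh3g. Idh3b was 66.4, 66.5 and 67.0 TPM with vehicle, 64.4, 64.9 and 64.9 with UK5099, 73.6, 74.8 and 75.8 with butyrate, and 66.2, 65.3 and 65.2 under the combination. The butyrate samples lay above vehicle. The combination did not as deposited, but did as fragments per exonic kilobase, at 25.1 to 25.7 against 19.6 to 20.1. Idh3b rose by 0.16 with butyrate (limma adjusted p = 2.72e-06) and by 0.52 after rescaling, where the combination differed by 0.48. Idh3a fell by 0.53 (adjusted p = 6.04e-06), from 23.5 to 24.2 TPM down to 15.6 to 17.3, and by 0.19 after rescaling. The fall of Idh3a no longer passed on both scales in 8 of the 12 fits that left out a sample. Idh3g differed by -0.16, 0.08 and -0.11, or -0.01, 0.43 and 0.39 after rescaling, and passed in none.

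Ratios of partners within a sample do not depend on how samples are scaled, and 5 were formed after the values had been seen. Their size does depend on the genomic spans by which TPM were divided, so only changes between groups can be read from them. Per exonic kilobase, for example, Idh3b and Idh3a were 19.8 and 16.7 with vehicle. Idh3b over Idh3a in TPM was 2.79 ± 0.030 with vehicle, 2.81 ± 0.12 with UK5099, 4.61 ± 0.25 with butyrate and 4.31 ± 0.23 under the combination (SD, n = 3). The groups with butyrate did not overlap vehicle. Mdh2 over Mdh1, mitochondrial over cytosolic malate dehydrogenase, was 2.44 ± 0.027, 2.59 ± 0.015, 2.75 ± 0.17 and 3.27 ± 0.050 in the same order. Idh1 over Idh2 was 1.59 ± 0.055, 2.27 ± 0.060, 1.67 ± 0.030 and 1.60 ± 0.037, highest with UK5099 alone. Over 15 comparisons of ratios with vehicle, the smallest two-sided p of an exact permutation test of 3 against 3 samples is 0.1, or 0.115 after Benjamini-Hochberg adjustment, so none could reach 0.05.

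In the 2-oxoglutarate dehydrogenase complex, Ogdh, its first component, fell by 0.25 with UK5099 (limma adjusted p = 6.83e-06), from 11.8 to 12.2 TPM down to 9.70 to 10.2, and by 0.54 under the combination, to 7.99 to 8.05 TPM. After rescaling these were -0.11 and -0.07, and the fall under the combination was lost in 4 of 12 fits that left out a sample. The other components, Dlst and Dld, passed in no comparison with vehicle; their differences with butyrate were -0.36 and -0.40 as deposited and -0.02 and -0.06 after rescaling.

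Succinyl-CoA synthetase pairs a common subunit, Suclg1, with Suclg2 in the GTP-forming enzyme or Sucla2 in the ATP-forming one. Suclg2 was 1.01, 1.00 and 0.982 TPM with vehicle, 1.04, 1.10 and 1.05 with UK5099, 1.23, 1.21 and 1.27 with butyrate, and 1.09, 1.11 and 1.15 under the combination. Every treated sample was above vehicle. Suclg2 rose by 0.16 with butyrate and 0.08 under the combination (limma adjusted p = 1.66e-05 and 0.00163), by 0.34 and 0.34 after rescaling, or by 0.62 and 0.55 on recovered fragments. Suclg2 over Sucla2 was 0.232 ± 0.0040 with vehicle, 0.270 ± 0.0044 with UK5099, 0.354 ± 0.011 with butyrate and 0.362 ± 0.0057 under the combination, with no overlap of vehicle. Sucla2 and Suclg1 themselves passed in none of the 3 comparisons.

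Succinate dehydrogenase oxidises succinate and is also complex II of the respiratory chain. With UK5099, 3 of its 4 subunits fell: Sdha by 0.23, Sdhb by 0.26 and Sdhd by 0.37 (limma adjusted p = 2.49e-05, 6.35e-05 and 3.49e-06), or by 0.09, 0.11 and 0.22 after rescaling. The calls of Sdha and Sdhb were lost in 4 and 9 of 12 fits that left out a sample. Sdhd was 57.9, 57.5 and 55.4 TPM with vehicle, 43.9, 43.8 and 43.4 with UK5099, 43.0, 40.4 and 40.0 with butyrate, and 34.0, 34.4 and 34.0 under the combination. Vehicle samples were highest, and combination samples lowest as deposited; as fragments per exonic kilobase the combination, at 51.7 to 53.1, overlapped UK5099 at 52.9 to 55.3. Sdhd fell by 0.46 with butyrate and 0.72 under the combination, the former lost in 11 of 12 such fits, and Sdha fell by 0.61 under the combination. After rescaling these were -0.11, -0.22 and -0.12. Sdhc, the other membrane anchor, differed by 0.02, 0.03 and -0.05, or 0.17, 0.37 and 0.44 after rescaling, and Sdhc over Sdhd was 0.359 ± 0.011, 0.474 ± 0.0038, 0.508 ± 0.031 and 0.577 ± 0.017.

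In the last steps, Fh1, fumarase, and Mdh2 passed in no comparison with vehicle. Mdh1 was 38.9 to 40.1 TPM with vehicle, 33.9 to 34.3 with UK5099, 27.5 to 29.4 with butyrate and 23.5 to 24.4 under the combination, and fell under the combination by 0.69 ± 0.026 (SE, limma adjusted p = 8.48e-09), which was -0.20 after rescaling. With the combination, Idh3g, Suclg1, Fh1, Mdh2 and Slc25a1 were past the limit below vehicle as deposited and above it after rescaling.

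The second question was whether the drugs added up. The interaction compares the combination with the sum of the single-drug differences and is little touched by scaling, as its median over all genes was 0.00. It was positive for 4 of the 31 genes and negative for 5, against 6.36% and 6.03% of all genes. Among genes averaging 1 TPM or more the shares were 9.01% and 9.99%. None of the 31 passed the study's limits, which 1.01% of all genes did. Pck2 was lowered by less than the sum: its single differences add to -1.71 and the combination gave -1.22, an interaction of 0.49 ± 0.036 (SE, limma adjusted p = 1.73e-05). The positive values of Me1, Idh2 and Sdhb were 0.34, 0.27 and 0.18, that of Sdhb being lost in 11 of 12 fits that left out a sample. Pcx was raised by less than the sum, 1.24 against 0.70, an interaction of -0.55 ± 0.076 (adjusted p = 7.94e-04). On recovered fragments its interaction was -1.10. Idh1 gave an interaction of -0.28 ± 0.032 (adjusted p = 2.16e-04): as deposited, its single differences of -0.04 and -0.11 came with -0.43 for the combination, and after rescaling 0.11 and 0.24 came with 0.06. Slc25a10 gave -0.015 ± 0.053 and did not pass.

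**Figure D4:**
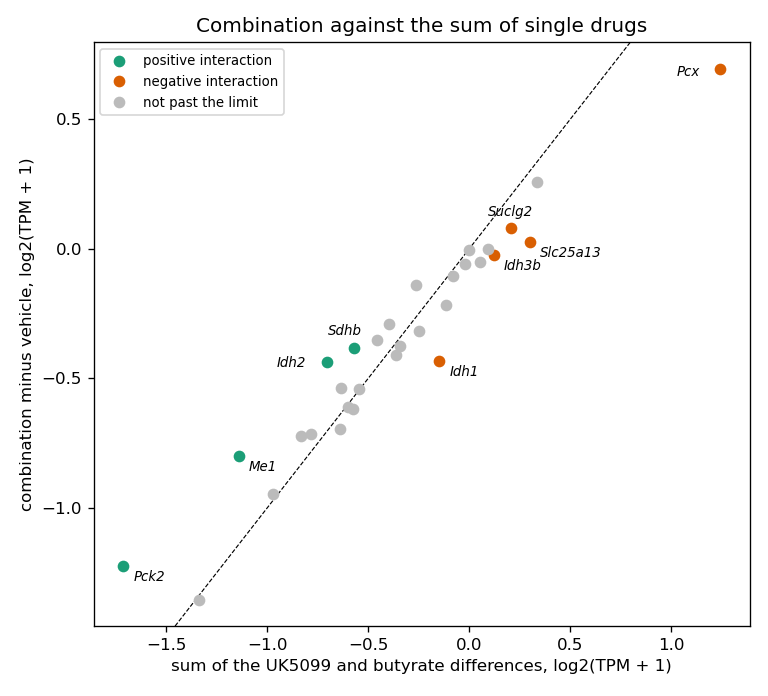
Difference of the combination from vehicle (y axis) against the sum of the 2 single-drug differences (x axis), both in log2(TPM + 1), 1 point per gene; the dashed line marks equality, and coloured, named points passed the interaction limit. Pck2 and Me1 lie above the line on the left, Pcx lies below it on the right, and Idh1 lies below it near the middle at a sum of -0.15 and a combination difference of -0.43.

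The third question was how butyrate differed from UK5099. Of the 31 genes, 10 were higher with butyrate and 4 lower, against 9.97% and 15.6% of all genes, and none passed the study's limits, which 1.86% of all genes did. Among genes averaging 1 TPM or more, 11.8% were higher and 25.4% lower. The higher genes were Idh2, Idh3b, Idh3g, Suclg1, Suclg2, Fh1, Me2, Pck2, Slc25a12 and Slc25a13, and the lower ones Aco1, Idh3a, Dlst and Slc25a1. The order of sizes depended on scale. As deposited, Idh3a at -0.48 ± 0.047 (SE), Slc25a1 at -0.41 ± 0.027, Dlst at -0.36 ± 0.024 and Idh2 at 0.35 ± 0.017 were farthest from 0. After rescaling they were -0.29, -0.20, -0.16 and 0.55, and Idh2, Pck2 at 0.54, Slc25a12 at 0.45 and Idh3g at 0.44 were farthest from 0. Scaling moved this comparison too: over the 28 genes at 1 TPM the median was -0.08 as deposited and 0.12 after rescaling.

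A list of 22 other genes of pyruvate entry, acetyl-CoA supply, glutamate metabolism and complex assembly, all found in the table, was read beside them. With UK5099, 4 rose and 3 fell, with butyrate 3 and 3, and under the combination 4 and 3, against 8.16% and 13.6%, 9.69% and 18.2%, and 10.1% and 20.6% of all genes. Among genes averaging 1 TPM or more these shares were larger, as given above. Sdhaf1, an assembly factor that helps insert iron-sulphur clusters into succinate dehydrogenase, fell from 34.7 TPM with vehicle to 13.1, 11.6 and 9.98, by 1.34, 1.50 and 1.70 in log2 (limma adjusted p = 1.84e-06, 3.10e-07 and 8.09e-08). Of the 22, it alone passed the study's limits as applied to log2(TPM + 1), which 1.84%, 3.54% and 6.42% of all genes passed in these comparisons. Some lower genes differed by over 1 on recovered fragments, such as Acss2 by 1.67 under the combination and Ogdhl by 1.67 with butyrate. Acss2, which makes acetyl-CoA from acetate, rose from 2.17 TPM to 3.92 with UK5099 and 5.28 under the combination, by 0.63 and 0.98. Got2, the mitochondrial aspartate aminotransferase of the malate-aspartate shuttle, rose in all 3 comparisons, by 0.12, 0.38 and 0.34. Glud1, which makes 2-oxoglutarate from glutamate, rose with UK5099 by 0.16, Ogdhl rose with butyrate by 0.47, and Dlat and Acly fell with butyrate by 0.47 and 0.50. After rescaling, the 3 values of Got2 were 0.27, 0.73 and 0.84, that of Glud1 was 0.31, and those of Dlat and Acly were -0.14 and -0.15. Those of Sdhaf1 were -1.19, -1.158 and -1.225, those of Acss2 were 0.72 and 1.37, and that of Ogdhl was 0.58.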

How the data were processed

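RNA-seq of 12 samples was analysed from 1 table of TPM per gene deposited by the authors. Per the methods, reads were trimmed with fastp, aligned with STAR to GRCm38 and quantified with RSEM; the submitters' processing notes name STAR 2.7.9a, Partek and GRCm39, and the table names no build. The deposited TPM equalled fragments divided by the whole genomic span. Recovered fragments were whole (within 0.02) for 75.4 to 76.6% of protein-coding values under 1000 fragments. Listed coordinates are printed as in the table; exonic lengths and promoters came from GRCm38 references and were joined by gene ID or name.

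limma 3.58.1 (R 4.3.3) was fitted to log2(TPM + 1) of all 24674 genes and 12 samples, with Benjamini-Hochberg adjustment over all genes, and again after median of ratios scaling. A fold change on this scale understates that of low genes. Named genes were all 31, with values per sample for those past the study's limits and the 6 farthest from the median of all genes in each comparison with vehicle. The members, lists and rules were chosen with earlier results of these data known. On simulated data, 173 of 200 changed genes were recovered in the UK5099 comparison of 24674 genes (89 of 108 changed 2-fold and 84 of 92 changed 4-fold), with 2 unchanged genes called. The simulation drew every group from the vehicle profile, without a shift of most genes or a sample that stood apart. It therefore gives no error rate under the conditions of these data. Alternatives were other pseudocounts, filters, scalings, priors, a replicate block, voom on fragments, pairs of groups alone and single samples left out. Ratios used exact permutation tests in Python 3.11.15 and scipy 1.17.1. The fragments give counting error only. Some genes are counted but not reported here by name.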

Additional observations from a re-analysis of the deposited data

Results flagged for a closer look

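Of the 31 genes, 9 had a combination effect that differed from the sum of the single-drug effects, by the interaction term of the limma fit. The values in log2(TPM + 1) were 0.49 for Pck2, 0.34 for Me1, 0.27 for Idh2 and 0.18 for Sdhb, and -0.55 for Pcx, -0.28 for Idh1, -0.27 for Slc25a13, -0.14 for Idh3b and -0.12 for Suclg2. Those of Sdhb and Suclg2 were lost in 11 and 6 of the 12 fits that left out a sample.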

How the results depend on the processing

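Counts of genes higher or lower depended most on scaling. With median of ratios alone, 9 were higher with UK5099, 12 with butyrate, 12 with the combination and 17 with butyrate than with UK5099. With the deposited scale alone, 20 were lower with butyrate, 22 with the combination and 14 with butyrate than with UK5099. With nuclear protein-coding genes as the second scale, 15 were lower with butyrate and 18 with the combination. No call made on both scales reversed; between the deposited and median of ratios scales taken alone, calls were opposite for 3 genes with butyrate, 5 with the combination and 2 (Sdha and Slc25a11) for butyrate against UK5099. On leaving out 1 sample, counts ranged from 2 to 3 higher and 9 to 11 lower with UK5099, from 5 to 6 and 4 to 5 with butyrate, from 3 to 3 and 8 to 9 with the combination, from 3 to 4 positive and 4 to 5 negative for the interaction, and from 9 to 10 and 4 to 5 for butyrate against UK5099. Suclg1 in the last comparison lost its call in 3 of 12 such fits. Leaving out both samples that stood apart, chosen after seeing the data, gave 3 positive and 4 negative interactions, and 10 higher and 4 lower for butyrate against UK5099. The replicate numbers did not pair the samples: same-number correlations were -0.11 to 0.029, 0 of 18 over 0.1, and 2 of 12 samples correlated best with their own number. With the replicate block, 2 and 11 genes were higher and lower with UK5099, 5 and 6 with butyrate, 3 and 9 with the combination, and 4 and 4 for the interaction; the calls of Ogdh with the combination and Suclg2 for the interaction were lost and Idh3a with the combination was gained. Me3 held 0 to 4 fragments per sample, and Pck1 held 10 in UK5099 replicate 1 and 0 in the other samples. No difference was detectable for either gene.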
